A study of Homo sapiens with 4 samples.

Results

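The folate and thymidylate cycle was described through 8 genes, DHFR2, TYMS, MTHFD1, MTHFD1L, MTHFD2, SHMT1, SHMT2 and SLC19A1, out of 62778 entries that carry a gene name in the deposited table. The genes were chosen by symbol, and where several entries named a symbol, the entry with the highest mean count was taken. DHFR2 belongs to the group because it rose with SF1-8 in these same libraries, so its change is given as a description without a test. The other 7 were taken for their place in the cycle. All 8 passed the filter on low counts, as did 26167 entries in all. The cells were K562, an established erythroleukemia line, overexpressing U2AF1 with the S34F mutation, and this overexpression is shared by both groups. Cells received either the solvent DMSO or SF1-8, a small molecule directed at the UHM domain of U2AF1, at 30 μM for 48 h. The sample titles state a time for the SF1-8 libraries only. Each group had 2 libraries of total RNA depleted of ribosomal RNA. The labels do not say whether the libraries of a group came from separate cultures, so p-values measure only the spread between these libraries, which may be technical. Cells without the mutant were not analysed here, so effects of SF1-8 that do and do not depend on it cannot be told apart.

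Folate carries single-carbon units from serine to purines, thymidylate and methionine. SLC19A1 brings reduced folate into the cell, the serine hydroxymethyltransferases SHMT1 (cytosol) and SHMT2 (mitochondria) load it with carbon from serine, and the MTHFD enzymes interconvert the loaded forms. TYMS spends the carbon to make thymidylate for DNA and leaves dihydrofolate, which must be reduced before it can carry carbon again. DHFR2 encodes a reductase for this step.

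Total counts were 45522905 and 64387710 in the DMSO libraries and 67554610 and 64305922 in the SF1-8 libraries (here and throughout, values of a group are given for replicate 1 and then replicate 2). The counts are estimates and not single reads, so no counting error is given. U2AF1 was at 11.4 to 12.0 FPKM (fragments per kilobase, scaled to library depth), a sum that does not separate mutant from endogenous mRNA. The erythroid markers GATA1 and KLF1 were at 75.9 to 79.1 and 23.9 to 25.9 FPKM in the 4 libraries. Of 13 K562 markers, 12 had a log2 fold change below 0, and 5 had both SF1-8 libraries below both DMSO libraries (20% of all tested entries did), 3 of them globin genes that share 1 entry (-0.15), with 0 past an unadjusted p of 0.05. Of 10 stromal markers, 9 were tested, and 5 of them were lower with SF1-8 at an unadjusted p under 0.05, as were 2.54% of all tested entries. The summed FPKM of the 10 was 15.5 and 8.96 with DMSO against 6.47 and 4.29 with SF1-8, with LUM at 0 in both SF1-8 libraries. Without PDGFRA, whose entry also names FIP1L1, the sum was 12.2 and 5.75 with DMSO against 2.99 and 0.625 with SF1-8. The 4 lymphoid markers summed to 5.29 to 6.51 FPKM, most of it PTPRC. CD3E, a T cell marker, was at 0.270 and 0.116 FPKM with DMSO and at 0.0338 and 0 with SF1-8, without overlap (unadjusted p = 0.0613). Of the 4 macrophage markers, CD14 was at 0 and 0.0282 FPKM with DMSO and 0.0816 and 0.0836 with SF1-8. Both SF1-8 values of CD14 were above both DMSO values, as in 14.2% of all tested entries. CSF1R stayed at or below 0.125 FPKM, and LYZ was at 4.08 to 5.80 FPKM. CD68 shares its entry with EIF4A1 and SENP3, so its level is not known. None of the tested lymphoid and macrophage markers passed an unadjusted p of 0.05. The part of these markers in the results was not tested.

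DHFR2 was the lowest of the 8 genes and the one with the widest spread. It was at 0.0776 and 0.0467 FPKM in the DMSO libraries and at 0.322 and 0.337 FPKM in the SF1-8 libraries. Both SF1-8 values were above both DMSO values, as in 14.2% of all tested entries, and DHFR2 was chosen for this rise. The means were 0.0621 ± 0.0218 and 0.329 ± 0.0108 FPKM (SD, n = 2 each), which differed 5.30-fold. The libraries within a group differed 1.66-fold (DMSO) and 1.05-fold (SF1-8). Because of the choice, these values do not test the rise. The estimated counts were 20 and 17 with DMSO and 118 and 119 with SF1-8, and the fitted log2 fold change was 2.42. A value at least as high was fitted for 157 of the 26167 tested entries, 111 of which were among the 7162 with a mean FPKM under 0.5, as DHFR2 was. At this low level the size depends on the scale, the log2 difference being 1.41 on FPKM + 0.1 and 0.32 on FPKM + 1.

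**Figure D1:**
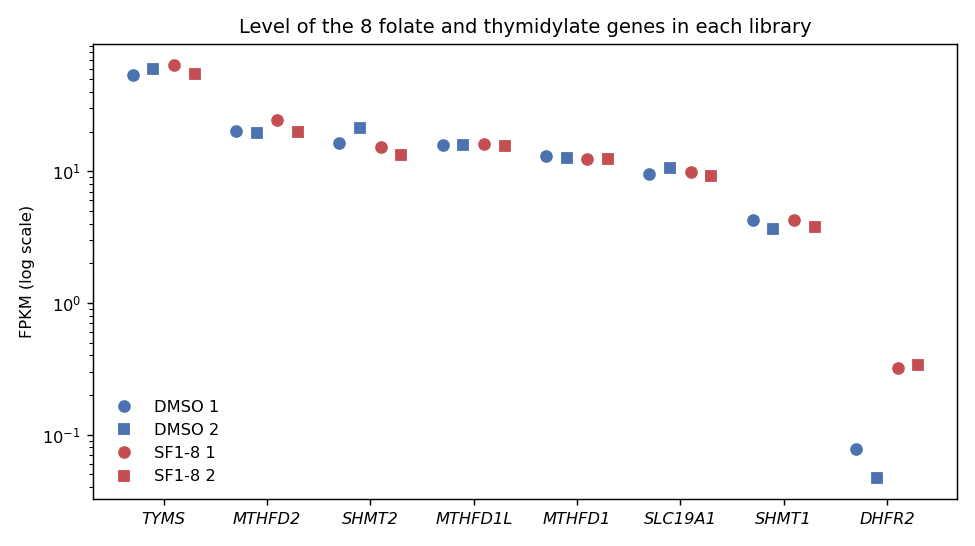
FPKM (log axis) of the 8 genes in each library, with DMSO in blue, SF1-8 in red, circles for replicate 1 and squares for replicate 2. TYMS is highest (53.5 to 64.4). DHFR2, chosen for its rise, is lowest, with SF1-8 at 0.322 and 0.337 and DMSO at 0.0776 and 0.0467.

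The DHFR2 entry lies on the minus strand of chromosome 3 (GRCh38, 94047836 to 94063389), and GENCODE lists 6 transcripts, 4 of them coding. By the GENCODE gene spans, its ends overlap genes of the opposite strand, among them NSUN3, a gene for a mitochondrial tRNA methyltransferase, over 474 bases. The sources used here do not state whether counting used strand, so reads from shared ends cannot be told apart, but the coding exon (94060951 to 94061511) lies outside the overlapping genes. DHFR2 also belongs to a family with near-identical copies, and how the counting divided reads among such copies is not given in the sources used here, so its values are uncertain to that extent. NSUN3 was at 1.38 and 1.19 FPKM with DMSO and 1.11 and 1.13 with SF1-8. The NSUN3 groups did not overlap, and its log2 fold change of -0.17 did not pass the test (adjusted p = 0.970).

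TYMS, thymidylate synthase, was the highest of the 8 genes. It was at 53.5 and 59.3 FPKM with DMSO and 64.4 and 54.6 with SF1-8. The groups overlapped, and the log2 fold change of 0.10 had a 95% interval from 0.863-fold to 1.34-fold. Its entry lies on chromosome 18 (657653 to 673578). By the GENCODE gene spans, TYMS overlaps opposite-strand genes, TYMSOS over 737 bases and ENOSF1 over 3255 bases. These were at 1.57 to 2.47 and 4.40 to 5.36 FPKM, well below TYMS, and had log2 fold changes of -0.087 and -0.036 that did not pass.

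SHMT2 had the lowest log2 fold change of the 8. It was at 16.5 and 21.3 FPKM with DMSO and 15.4 and 13.2 with SF1-8. Both SF1-8 values were below both DMSO values, an order that 20% of all tested entries showed. The log2 fold change of -0.38 (SE 0.175) did not pass (adjusted p = 0.970), and its interval ran from 0.564-fold to 1.04-fold. It was -0.13 without DMSO 2 and -0.59 without DMSO 1. SHMT1, the cytosolic enzyme, was lower, at 4.23 and 3.63 FPKM with DMSO and 4.25 and 3.80 with SF1-8, with overlapping groups. Its log2 fold change was 0.063, with an interval from 0.854-fold to 1.28-fold, and its entry (chromosome 17, 18327860 to 18363563) also names MIR6778. That entry overlaps the opposite-strand entry of SMCR8 (18315293 to 18328056), which was at 6.09 to 6.65 FPKM. Reads from the shared end cannot be told apart without strand. SHMT2 exceeded SHMT1 by 3.89-fold and 5.89-fold with DMSO and by 3.62-fold and 3.47-fold with SF1-8.

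MTHFD2, a mitochondrial dehydrogenase and cyclohydrolase, was at 20.2 and 19.4 FPKM with DMSO and 24.3 and 20.0 with SF1-8. SF1-8 1 was above the other 3 libraries, which lay close together. The log2 fold change of 0.19 had an interval from 0.934-fold to 1.39-fold, and it was 0.038 without SF1-8 1 and 0.33 without SF1-8 2. MTHFD1L, which releases formate in mitochondria, was the steadiest of the 8, at 15.9 and 15.9 FPKM with DMSO and 16.1 and 15.7 with SF1-8. Its highest library exceeded its lowest by 1.03-fold, and its log2 fold change was 0.023, with an interval from 0.889-fold to 1.16-fold. MTHFD1, which interconverts folate forms in the cytosol, was at 13.0 and 12.6 FPKM with DMSO and 12.4 and 12.4 with SF1-8. The SF1-8 values lay just below those of DMSO, with a log2 fold change of -0.018 and an interval from 0.881-fold to 1.11-fold.

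SLC19A1, the reduced folate carrier, was at 9.45 and 10.5 FPKM with DMSO and 9.89 and 9.19 with SF1-8. The groups overlapped, and the log2 fold change of -0.041 had an interval from 0.806-fold to 1.17-fold. The entry used (chromosome 21, 45493572 to 45544411) is 1 of 3 that name the gene. It overlaps the opposite-strand entry of COL18A1 (45405129 to 45513720), which was at 1.74 to 2.04 FPKM. Reads from the shared stretch cannot be told apart without strand.

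Of the 7 genes other than DHFR2, 0 passed an adjusted p of 0.05 in edgeR, where 0.042% of all tested entries did, and their adjusted p-values lay between 0.970 and 0.989. At an unadjusted p under 0.05, 0 of the 7 were higher and 0 lower with SF1-8, beside 1.78% higher and 2.54% lower, 4.33% together, among all tested entries. The groups did not overlap for SHMT2 and MTHFD1, 2 of the 7, beside 34.2% of all tested entries. A p that misses the threshold does not show that these genes were unchanged, and the intervals reached from 0.564-fold to 1.39-fold. The median log2 fold change of the 7 genes was 0.023, beside -0.011 over all tested entries, and it was 0.043 with DHFR2, which was chosen for its rise.

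**Figure D2:**
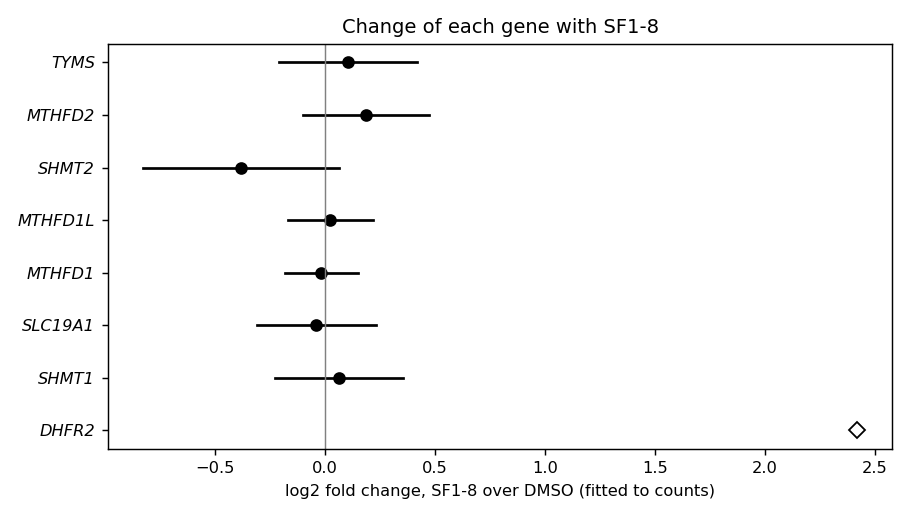
Log2 fold change of SF1-8 over DMSO fitted to the counts, with 95% confidence intervals for 7 genes. These intervals cross 0, SHMT2 is lowest (-0.38), and DHFR2 (open diamond, 2.42) has no interval because it was chosen for its rise.

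By mean FPKM, TYMS (57.9) was followed by MTHFD2 (21.0), SHMT2 (16.6), MTHFD1L (15.9), MTHFD1 (12.6), SLC19A1 (9.76), SHMT1 (3.98) and DHFR2 (0.196). MTHFD2 was above SHMT2 in 3 of 4 libraries and SHMT2 above MTHFD1L in 2 of 4, and the ranges of these neighbours overlapped. The other neighbours kept their order in 4 of 4 libraries, with separate ranges. The mitochondrial enzymes MTHFD2, MTHFD1L and SHMT2 summed to 52.6 and 56.7 FPKM with DMSO and 55.8 and 48.9 with SF1-8. The cytosolic enzymes MTHFD1 and SHMT1 summed to 17.3 and 16.2 FPKM with DMSO and 16.7 and 16.2 with SF1-8. In the deposited annotation, 7 of the 8 genes, all but SLC19A1, carry the KEGG term One carbon pool by folate.

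Around the cycle, 55 further genes in 7 lists were examined, and 48 were tested. None passed an adjusted p of 0.05 in edgeR. At an unadjusted p under 0.05, 1 was higher and 2 were lower with SF1-8 (6.25% of the 48, beside 4.33% of all tested entries). The log2 fold change was above 0 for 32 and below 0 for 16, with a median of 0.044. The groups did not overlap for 9 of the 48 (18.8%), beside 34.2% of all tested entries. SF1-8 was above DMSO for 4 of these and below it for 5. SAMHD1, which degrades deoxynucleotides, was at 2.37 and 2.54 FPKM with DMSO and 3.43 and 4.92 with SF1-8. Its groups did not overlap, and the log2 fold change was 0.79 (SE 0.188, unadjusted p = 0.00808, adjusted p = 0.970). MTHFD2L, a mitochondrial relative of MTHFD2, was at 3.27 and 2.19 FPKM with DMSO and 1.42 and 2.04 with SF1-8 (log2 fold change -0.63, unadjusted p = 0.0485). AMT, of the glycine cleavage system, was at 0.655 and 0.707 FPKM with DMSO and 0.514 and 0.458 with SF1-8 (log2 fold change -0.47, unadjusted p = 0.0471), in an entry shared with NICN1.

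**Figure D3:**
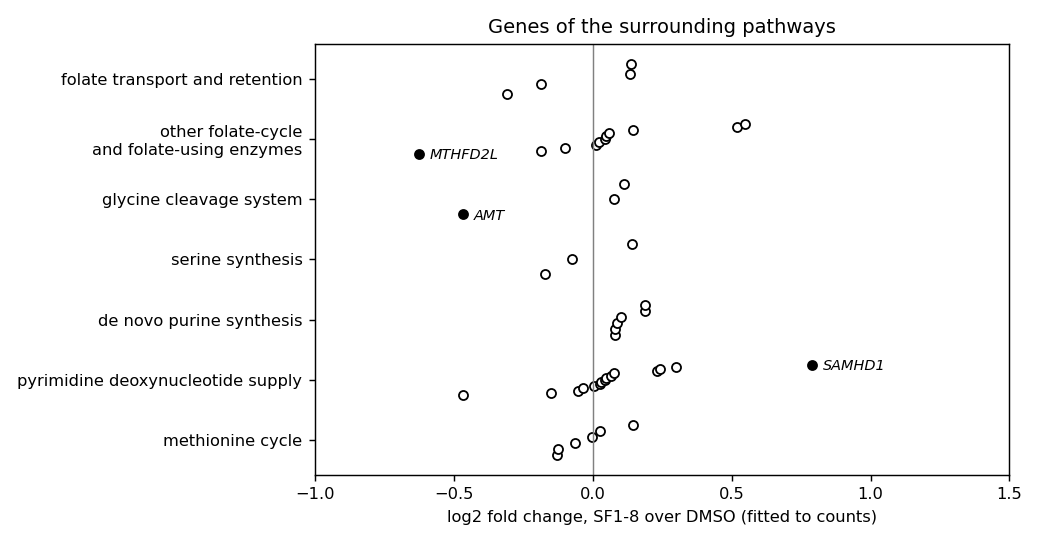
Log2 fold change of SF1-8 over DMSO for the 48 tested genes of 7 lists, each point a gene. Filled points have an unadjusted p under 0.05, namely SAMHD1 (0.79), MTHFD2L (-0.63) and AMT (-0.47), and none passes after adjustment.

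Of the 7 genes of folate transport and retention, 4 were tested and 0 passed at either level. GGH, which removes glutamates from stored folate, was at 10.6 to 12.6 FPKM. The proton-coupled folate transporter SLC46A1 was at 1.10 and 1.25 FPKM with DMSO and 0.914 and 0.946 with SF1-8, without overlap, and the mitochondrial carrier SLC25A32 at 8.29 to 9.66 FPKM. The folate receptors FOLR1, FOLR2 and FOLR3 were not tested, and the highest value among them was 0.0582 FPKM. Of the glycine cleavage genes GLDC was at 0 in all 4 libraries, and DLD was at 28.7 to 33.7 FPKM. In serine synthesis, PSAT1 was at 19.8 to 23.1 FPKM with a log2 fold change of 0.14, and PHGDH, the first enzyme, at 0.727 to 0.980 FPKM with -0.17.

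All 6 genes of de novo purine synthesis had a log2 fold change above 0, from 0.079 to 0.19, and 0 passed at either level. ATIC and GART, which take carbon from folate, were at 44.0 to 48.4 and 38.0 to 42.5 FPKM. The entry of ADSL, which also names SGSM3, was at 5.76 and 5.76 FPKM with DMSO and 6.30 and 6.59 with SF1-8, without overlap, at an unadjusted p = 0.0524 in edgeR. Among the 15 genes of pyrimidine deoxynucleotide supply, CAD, which starts pyrimidine synthesis, was at 41.9 to 43.4 FPKM. RRM2B, a subunit of ribonucleotide reductase, was at 5.55 and 5.36 FPKM with DMSO and 5.96 and 6.62 with SF1-8, without overlap (log2 fold change 0.23, unadjusted p = 0.0627). RRM2, its S phase counterpart, was at 12.4 and 24.0 FPKM with DMSO and 12.0 and 14.1 with SF1-8, and DUT, which removes dUTP, was at 7.07 and 4.97 FPKM with DMSO and 6.39 and 7.53 with SF1-8. DMSO 2 was the highest library for RRM2 and the lowest for DUT. Over all tested entries, however, DMSO 1 lay furthest from the median of the other 3 libraries. Its median absolute log2 difference was 0.271, beside 0.241 for DMSO 2. In the methionine cycle MAT2A, which makes S-adenosylmethionine, was at 109 and 90.8 FPKM with DMSO and 87.9 and 90.9 with SF1-8.

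**Figure D4:**
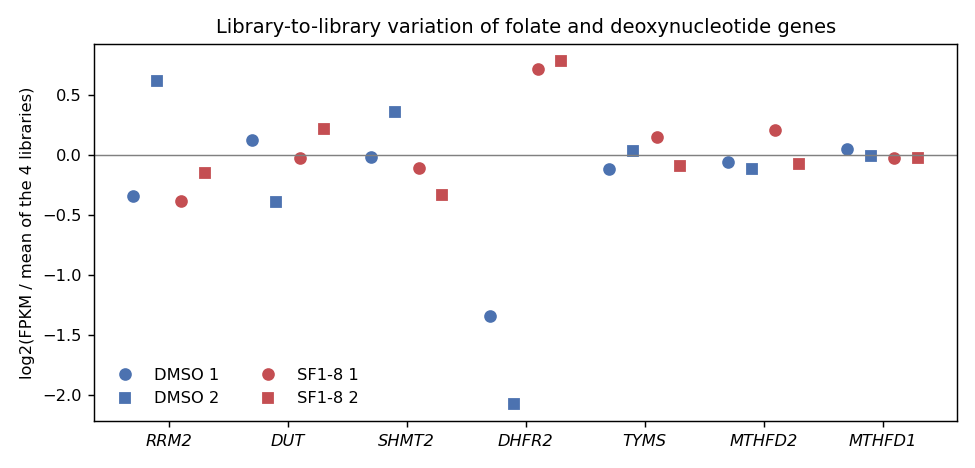
Log2 ratio of each library's FPKM to the mean of the 4 libraries for RRM2, DUT and 5 of the 8 genes, with DMSO in blue, SF1-8 in red, circles for replicate 1 and squares for replicate 2. DMSO 2 is the highest library for RRM2 (24.0 FPKM) and SHMT2 (21.3) and the lowest for DUT (4.97).

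Of 14 proliferation genes, 0 passed at either level, 13 had a log2 fold change above 0, and the median was 0.054. TOP2A was at 57.9 to 60.5 FPKM and PCNA at 88.0 to 102 FPKM, with overlapping groups for each. Both SF1-8 libraries were above both DMSO libraries for 3 of the 14 (14.2% of all tested entries were), namely MKI67 (log2 fold change 0.24), CDC6 (0.36) and MCM5 (0.094).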

How the data were processed

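RNA was sequenced from 4 libraries of K562 cells overexpressing U2AF1 S34F, 2 given DMSO and 2 given SF1-8, grouped by the labels. The submitters' processing notes name cutadapt, FastQC, Bowtie2, HISAT2, StringTie and hg38, without versions or roles, and strand handling is not given in the sources used here. The authors deposited FPKM values, scaled for length and depth, in which 0.0001 stands for a count of 0. The deposited counts hold no fractions, yet their most frequent non-zero value is 4, so they were treated as estimated counts. Entries naming no gene held 0.372% of the counts and were left out, and 2088 entries name more than 1 gene. The counts were normalized by TMM, filtered by filterByExpr and tested with edgeR 4.0.16 (glmQLFit, glmQLFTest) in R 4.3.3, with Benjamini-Hochberg adjustment over all tested entries. The SE is the log2 fold change divided by the root of F. Alternatives used DESeq2 1.42.0, or limma 3.58.1 on log2(FPKM + 1) or log2(FPKM + 0.1) with a minimum FPKM of 0.1 in 2 libraries. Only the edgeR step was run on simulated counts, with changes of 4-fold in either direction. Smaller changes, DESeq2 and limma were not simulated, and the outcome is not given here.

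The genes and lists were chosen with earlier results of these data known. Beside the 8 genes, the rule named U2AF1, NSUN3, TYMSOS, ENOSF1, the nearest profiles, and of each pathway list the gene with the highest mean FPKM and the 3 with the smallest p. RRM2, the folate receptors, GLDC, the proliferation genes and cell markers were named outside it, after their values were seen. Some genes that the rule or the counts include are not reported here.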

Additional observations from a re-analysis of the deposited data

How the results depend on the processing

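Values were recomputed under 14 alternatives. Of the 7 genes other than DHFR2, 0 passed an adjusted p of 0.05 under any of the 14. At an unadjusted p, 1 passed with library sizes alone (SHMT2), and 0 to 1 when single libraries were left out (SHMT2 without DMSO 1, MTHFD2 without SF1-8 2). The median of these 7 lay between -0.023 (library sizes alone) and 0.066 (without DMSO 2), and was also below 0 in limma (-0.0035 and -0.0033) and without DMSO 1 (-0.013) or SF1-8 1 (-0.021). Of 98 recomputed values of the 7 genes, 12 changed sign. MTHFD1L turned to -0.023 with library sizes alone, -0.0033 on log2(FPKM + 1) with and without a filter, and -0.0035 on log2(FPKM + 0.1). Leaving out single libraries gave -0.013 to 0.066 for MTHFD1L, -0.024 to 0.23 for TYMS, -0.032 to 0.00017 for MTHFD1, -0.021 to 0.15 for SHMT1 and -0.15 to 0.087 for SLC19A1. The value of DHFR2 lay between 2.13 and 2.76 over 11 count-based alternatives. In limma it was 0.32 on log2(FPKM + 1), with and without a filter, and 1.41 on log2(FPKM + 0.1). DHFR2 was chosen for its rise in these libraries, so this range does not test it.

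With DESeq2, 1 pathway gene was higher at an adjusted p under 0.05 (SAMHD1, adjusted p = 0.0425, 0.0425 to 1.00 over the 14). At an unadjusted p, 1 pathway gene was lower with DESeq2, library sizes alone, no filter or counts divided by 4, and 0 in limma. Leaving out single libraries gave 1 to 3 lower and 2 to 3 higher. Over all entries, 11 passed an adjusted p of 0.05, against 143 with DESeq2, 31 without a filter, 0 in limma, and 0, 21, 30 and 28 without DMSO 1, DMSO 2, SF1-8 1 and SF1-8 2. The cause was not tested.

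With the replicate number as a block, 0 of the 7 genes passed at either level, 0 pathway genes were lower and 1 higher at an unadjusted p, and 0 of all entries passed an adjusted p of 0.05, with 971 at an unadjusted p against 1132. The labels do not say whether libraries of the same number share a culture or preparation. Across genes, deviations from the group mean had a correlation of 0.016 between replicate 1 of DMSO and replicate 1 of SF1-8.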

Other observations

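Among the 3 tested entries whose log2 CPM profile over the 4 libraries, centred on its mean, lay nearest to that of DHFR2 were LINC01257 (root mean square distance 0.113) and TSSK1A (0.179). LINC01257 was at 0.0390 and 0.0243 FPKM with DMSO and 0.183 and 0.158 with SF1-8, and TSSK1A at 0.0847 and 0.0605 with DMSO and 0.387 and 0.460 with SF1-8. For TYMS, the nearest were FZD1 (0.00423), COX20 (0.00695) and the entry of DAGLB and KDELR2 (0.00786). With 4 libraries, these are descriptions of the profiles.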
